A study of Mus musculus with 17 samples.

Results

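The genes described here are 10 components and responsive genes of the canonical Wnt pathway in brain endothelium, Fzd4, Lrp5, Lrp6, Tspan12, Adgra2, Reck, Lef1, Axin2, Apcdd1 and Sox17. They are a list of names set with earlier results of these data known, although the rule itself uses no measured value, and all 10 were found among the 42687 genes of the deposited count table. All 10 also passed the filter on low counts, which left 18753 genes for testing. With genotype and with peptide, 0 of the 10 genes passed the test, where at most 0.587% of all genes tested did in any comparison. Groups overlapped for each of the 10 genes. Between single libraries, in contrast, most of them moved together with the mean level of endothelial markers, and pericyte and fibroblast markers moved with it.

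In canonical Wnt signalling a ligand binds a Frizzled receptor and a co-receptor of the low-density lipoprotein receptor-related family, beta-catenin escapes degradation, and it activates genes together with TCF/LEF factors in the nucleus. Brain endothelial cells need this signal to form the blood-brain barrier and to keep it in the adult. They receive it as Wnt7a and Wnt7b, whose recognition depends on Adgra2 (also called Gpr124) and Reck, and as Norrin, a ligand of Fzd4 that is helped by the tetraspanin Tspan12.

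RNA was sequenced from microvessels isolated from the brain cortex of mice 10 to 11 months old, which the labels describe as endothelial cells, pericytes and astrocytic endfeet. The animals were wild type (WT) or had transgenes of an amyloid model, written APP in the sample labels and APP/PS1 in the design text, and the labels name neither the line nor the promoter. All mice, controls included, received a peptide intraperitoneally at 10 mg/kg, with 2 days between doses, for 2 weeks. This was either gp91-ds-tat, which inhibits the superoxide-producing oxidase NOX2, or the control sgp91-ds-tat, and the labels NOX2 and SC were read as these. There were 5 libraries of WT with control peptide, 5 of WT with inhibitor, 2 of APP/PS1 with control peptide and 5 of APP/PS1 with inhibitor. The extraction protocol speaks of ipsilateral cortices taken after surgery and does not say which surgery. The labels do not say whether the libraries of a group came from separate animals, so p-values measure the spread between these samples, which may be technical.

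Total counts per library were between 7316503 and 17862965. The genotype labels were checked on App and Prnp, which were higher in APP/PS1 by 0.69 and 1.30 on the log2 scale (exact permutation test, two-sided, p = 0.000206 and 5.14e-05, the latter the smallest that 19448 splits can give). All 12 endothelial markers were detected, with a summed level of 2225 to 4011 CPM (counts scaled to library size, with TMM factors) over the 17 libraries, and all 7 pericyte markers with 1037 to 1763 CPM. The preparations were not free of other cells. Summed levels were 2486 to 4190 CPM for 6 neuronal markers, 2952 to 5092 CPM for 6 astrocyte markers, 1409 to 2506 CPM for 5 oligodendrocyte markers and 32.7 to 8280 CPM for 5 markers of choroid plexus epithelium. In such bulk samples, fewer cells of a type and less RNA per cell cannot be told apart.

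Lef1 encodes one of the TCF/LEF factors, so the promoters of the group were searched for the core that these factors bind. The search was for the letters CTTTG with a pair of bases after them that are each adenine or thymine, on both strands of the 250 bases before each start in RefSeq's promoter table of GRCm38.p6. The table held 8 such windows for 5 of the 10 genes: Lef1, Reck, Tspan12, Fzd4 and Axin2. Several of these windows were of Lef1, and those at chr3:131110047-131110296 and chr3:131110073-131110322 overlap, so the 8 windows are not separate promoters. A core was present in 2 of the 8 windows, beside 14.84% of all 32851 windows of the table, and the SOX core ATTGTT was present in 0 of 8, beside 9.42% of all windows. The windows with a core are shown 5′ to 3′ on the gene's strand with the core in capitals, together with the window of Axin2, the usual readout gene of the pathway, as a window without one. The Lef1 window, chr3:131156044-131156293 on the plus strand, precedes a start inside the gene, and its core begins at position -147 from that start. The Reck window is chr4:43875280-43875529 on the plus strand, with the core at -121, and the Axin2 window is chr11:108920099-108920348 on the plus strand. Both capital stretches are the reverse complement of a searched core. A match is a description of letters and not evidence of binding.
Lef1 internal start: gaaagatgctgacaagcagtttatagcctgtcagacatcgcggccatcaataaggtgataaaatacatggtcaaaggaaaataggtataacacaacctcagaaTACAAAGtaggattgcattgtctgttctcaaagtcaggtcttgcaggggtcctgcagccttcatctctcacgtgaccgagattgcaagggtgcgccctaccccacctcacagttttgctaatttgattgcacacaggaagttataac
Reck: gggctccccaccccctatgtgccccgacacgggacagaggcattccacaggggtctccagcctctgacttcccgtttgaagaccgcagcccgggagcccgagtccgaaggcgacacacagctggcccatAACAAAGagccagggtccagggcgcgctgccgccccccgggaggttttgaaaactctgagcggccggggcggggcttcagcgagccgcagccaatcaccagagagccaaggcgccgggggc
Axin2: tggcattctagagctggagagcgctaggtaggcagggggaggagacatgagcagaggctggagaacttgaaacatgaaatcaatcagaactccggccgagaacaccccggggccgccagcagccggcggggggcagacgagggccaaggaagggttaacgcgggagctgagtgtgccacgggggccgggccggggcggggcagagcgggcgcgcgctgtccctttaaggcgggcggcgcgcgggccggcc

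Compared per kilobase of annotated exon, the 10 genes spanned a modest range. Reck stood first with a mean level of 22.4 CPM per kb ± 4.70 (SD, n = 17), followed by Adgra2 at 20.1 ± 4.41, Lrp6 at 17.2 ± 2.52, Sox17 at 14.8 ± 2.83 and Axin2 at 14.6 ± 1.62 CPM per kb. Lef1 followed at 13.0 ± 2.85, Fzd4 at 12.2 ± 3.25, Apcdd1 at 10.3 ± 2.23, Lrp5 at 7.92 ± 1.28 and Tspan12 at 4.77 ± 0.822 CPM per kb. The Reck level was above that of 92.8% of the genes tested, and the Tspan12 level above that of 51.6%. The ranges of neighbours in this order overlapped throughout. Even so, Lrp5 was above Tspan12 in 17 of 17 libraries and Reck above Adgra2 in 15 of 17, whereas Sox17 was above Axin2 in only 8 of 17. The lengths are the union of all annotated exons, so a gene with rarely used exons appears lower on this scale.

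Within the signalling complexes the proportions differed as well. The co-receptor Lrp6 was above its relative Lrp5 per kb in 17 of 17 libraries, with a mean ratio of 2.21 ± 0.364 (SD, n = 17). The receptor Fzd4 was above its partner Tspan12 in 17 of 17 libraries, with a mean ratio of 2.63 ± 0.863. The Wnt7 co-receptors Adgra2 and Reck were closer, with a mean ratio of Adgra2 to Reck of 0.903 ± 0.121, above 1 in 2 of 17 libraries. Both of those libraries were APP/PS1 with inhibitor, a group of 5 whose ratios averaged 1.00 ± 0.152, beside 0.873 ± 0.0918 in WT with control peptide; this difference was not tested.

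**Figure D1:**
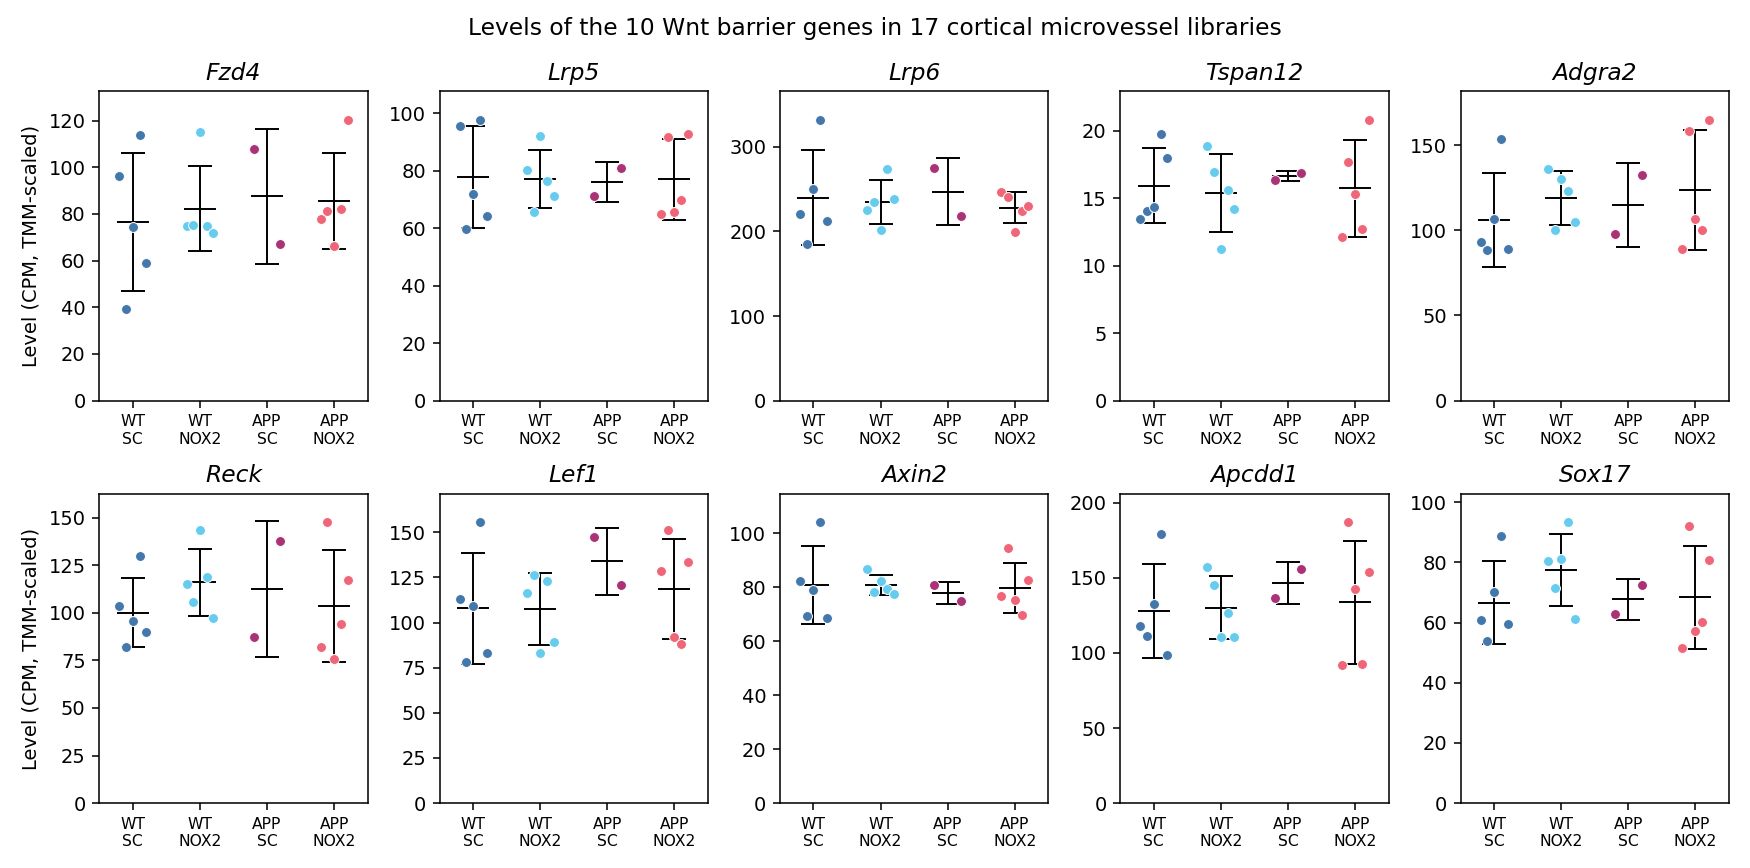
Level of each of the 10 genes in every library, in CPM on TMM-scaled library sizes, for the 4 groups (WT or APP mice, SC control peptide or NOX2 inhibitor peptide). Points are libraries, and the black marks are the mean and SD of 5, 5, 2 and 5 libraries; within each gene the groups overlap, and Axin2 stays between 68.7 and 104 CPM.

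Fzd4 (ENSMUSG00000049791, chr7:89404355-89413134 in GRCm38) encodes the Frizzled receptor through which Norrin acts on vessels. Its level was 96.1, 39.4, 74.3, 114 and 59.0 CPM in the 5 WT libraries with control peptide, and 74.7, 75.1, 115, 74.8 and 71.9 CPM in the 5 WT libraries with inhibitor. In APP/PS1 it was 108 and 67.1 CPM with control peptide, and 78.0, 81.2, 66.1, 82.0 and 120.5 CPM with inhibitor. Fzd4 was thus the most variable of the 10 genes, and the WT libraries with control peptide alone covered nearly the whole range. The biological coefficient of variation, edgeR's measure of spread between replicates beyond counting, was 0.258 for Fzd4.

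The co-receptors were steadier. Lrp6 (ENSMUSG00000030201, chr6:134446476-134566965) is required for canonical signalling in most cells, and ranged from 185 to 332 CPM over the 17 libraries with a median of 229.7 CPM. Both its lowest and its highest library were WT with control peptide. Lrp5 (ENSMUSG00000024913, chr19:3584828-3686564), the co-receptor that works with Fzd4 in the response to Norrin, ranged from 59.7 to 97.7 CPM, again with both ends in WT with control peptide. Tspan12 (ENSMUSG00000029669, chr6:21771395-21852515), a membrane protein that enhances Norrin signalling through Fzd4, was the lowest of the group at 11.2 to 20.8 CPM, which corresponds to 120 to 270 counts per library.

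Adgra2 (ENSMUSG00000031486, chr8:27085583-27123436), an adhesion G protein-coupled receptor, was at 92.9, 88.6, 107, 154 and 89.3 CPM in WT with control peptide and at 136, 100.4, 130.0, 123 and 105 CPM in WT with inhibitor. In APP/PS1, Adgra2 was at 97.7 and 132 CPM with control peptide and at 89.2, 158, 107, 99.99 and 165 CPM with inhibitor. WT library 4 with control peptide and APP/PS1 libraries 2 and 5 with inhibitor were high, and the groups overlapped. Reck (ENSMUSG00000028476, chr4:43875530-43944806) encodes the membrane-anchored protein that binds Wnt7 and joins it to Adgra2. Its level was 103, 82.1, 95.6, 129.8 and 89.7 CPM in WT with control peptide and 115, 106, 144, 119 and 97.4 CPM in WT with inhibitor. Reck was at 87.0 and 138 CPM in APP/PS1 with control peptide and at 81.9, 148, 75.8, 94.2 and 117 CPM with inhibitor. The APP/PS1 libraries with inhibitor held both the lowest and the highest Reck level of the 17.

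Axin2 (ENSMUSG00000000142, chr11:108920349-108950783) is a direct target that feeds back on beta-catenin and is the customary readout of canonical activity. Its level was 82.4, 69.4, 79.0, 104 and 68.7 CPM in WT with control peptide and 86.9, 78.1, 82.5, 79.3 and 77.6 CPM in WT with inhibitor. In APP/PS1, Axin2 was at 80.8 and 75.0 CPM with control peptide and at 76.9, 94.4, 75.3, 69.8 and 82.5 CPM with inhibitor. It varied least of the 10 genes, with a coefficient of variation of 0.125, lower than that of 75.3% of the genes tested. WT library 4 with control peptide was the highest, and the other 16 libraries lay within 68.7 to 94.4 CPM.

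Lef1 (ENSMUSG00000027985, chr3:131110471-131224356) was at 113, 78.0, 109, 156 and 83.4 CPM in WT with control peptide and at 116, 126, 83.0, 123 and 89.4 CPM in WT with inhibitor. In APP/PS1, Lef1 was at 147 and 121 CPM with control peptide and at 128, 151, 91.7, 88.3 and 133 CPM with inhibitor. The APP/PS1 libraries with control peptide stood in the upper part of the range and 1 WT library with control peptide above both. Apcdd1 (ENSMUSG00000071847), a membrane-bound Wnt inhibitor expressed in brain endothelium as a response to the pathway, ranged from 91.9 to 187 CPM, and both ends were APP/PS1 with inhibitor. Lef1 shares 13.7% of its exon bases with an opposite-strand gene, Gm43352, which had at most 32 counts in a library.

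Sox17 (ENSMUSG00000025902, chr1:4490931-4497354) encodes a SoxF transcription factor of endothelial cells, linked to Wnt signalling in vessels. Its level was 60.8, 53.7, 70.1, 89.0 and 59.5 CPM in WT with control peptide and 80.6, 71.4, 81.2, 93.4 and 61.1 CPM in WT with inhibitor. Sox17 was at 63.0 and 72.4 CPM in APP/PS1 with control peptide and at 51.7, 92.0, 57.3, 60.2 and 80.9 CPM with inhibitor. Libraries 4 of both WT groups and library 2 of APP/PS1 with inhibitor were the highest, and the groups overlapped. An opposite-strand gene, Gm37587, overlaps 16.8% of its exon bases with at most 21 counts in a library.

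The main question of the design is whether the transgenes change these levels. Over both peptides, 0 of the 10 genes passed an adjusted p of 0.05 by the quasi-likelihood test of edgeR, adjusted by Benjamini-Hochberg over 18753 genes, where 0.587% of all genes tested did, and 0 of the 10 had an unadjusted p under 0.05, where 6.38% of all genes did. Their median log2 difference, APP/PS1 minus WT, was 0.02, beside 0.00 over all genes tested, with 5 genes above 0 and 5 below. Lef1 had the largest value, with a mean of 123 CPM ± 24.8 in the 7 APP/PS1 libraries (SD) and 107.7 CPM ± 24.5 in the 10 WT libraries. Its log2 difference was 0.20 ± 0.14 (SE), with a 95% interval from -0.09 to 0.50 (edgeR quasi-likelihood adjusted p = 0.909). Axin2 was the most precisely measured, at 79.2 CPM ± 7.87 in APP/PS1 and 80.8 CPM ± 9.93 in WT, a log2 difference of -0.03 ± 0.08 (SE) with an interval from -0.20 to 0.14.

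Of the receptors, Fzd4 had a log2 difference of 0.11, with an interval from -0.27 to 0.48, Tspan12 of 0.04, and Lrp5 and Lrp6 of -0.01 each. The Wnt7 co-receptors had log2 differences of 0.08 for Adgra2 and -0.04 for Reck. Apcdd1 had 0.10 and Sox17 -0.10. The 95% intervals of all 10 genes lay within 1 log2 unit of 0 and those of 9 within 0.5, Lef1 being the exception at its upper end. A genotype difference of 2-fold was therefore outside every interval.

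With control peptide alone, where APP/PS1 had 2 libraries, 0 of the 10 genes passed, beside 0.0533% of all genes tested. Their log2 differences ranged from -0.05 to 0.31, 8 of the 10 were above 0, and Lef1 again had the smallest unadjusted p (log2 difference 0.31 ± 0.24 SE, edgeR quasi-likelihood adjusted p = 1.00). With inhibitor, 0 of the 10 passed, beside 0.181% of all genes tested, and the log2 differences ranged from -0.18 for Sox17 to 0.14 for Lef1. The intervals of 4 and 6 of the 10 genes, respectively, lay within 0.5 log2 units of 0.

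**Figure D2:**
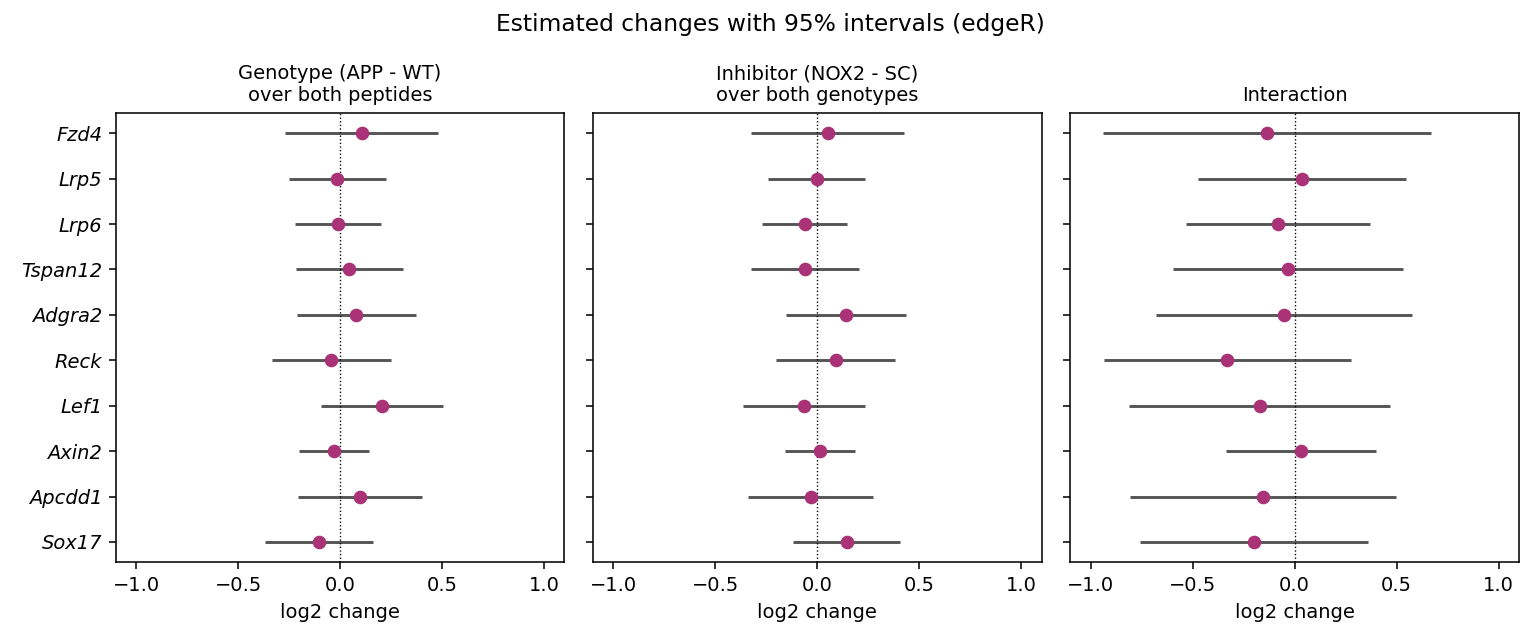
Estimated log2 change of each gene (points) with its 95% interval (lines) from edgeR, for genotype over both peptides, for inhibitor over both genotypes and for their interaction. Every interval crosses the dotted line at 0, and the intervals of the interaction are the widest, reaching from -0.94 to 0.67.

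The second question is whether the peptide against NOX2 changes these levels. Over both genotypes, 0 of the 10 genes passed in edgeR's quasi-likelihood test, where 0.0% of all genes did, and 396 of all 18753 genes, but 0 of the 10, had an unadjusted p under 0.05. DESeq2 also called 0 genes. The log2 differences, inhibitor minus control peptide, ranged from -0.07 for Lef1 to 0.14 for Sox17 and for Adgra2. Axin2 differed by 0.01 ± 0.08 (SE), with an interval from -0.16 to 0.18, and the intervals of all 10 genes lay within 0.5 log2 units of 0. Reck had 0.09, Fzd4 0.05, Lrp5 0.00, Apcdd1 -0.03, and Tspan12 and Lrp6 -0.06 each.

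Within WT, 0 of the 10 genes passed (0.0% of all genes in edgeR, with 252 of all genes at an unadjusted p under 0.05, and 0 in DESeq2). Sox17 had the smallest unadjusted p there, with 77.5 CPM ± 12.1 (SD, n = 5) with inhibitor and 66.6 CPM ± 13.8 (SD, n = 5) with control peptide, a log2 difference of 0.22 ± 0.16 (SE, edgeR quasi-likelihood adjusted p = 1.00). Within APP/PS1, 0 of the 10 passed (0.0% of all genes in edgeR, with 338 at an unadjusted p under 0.05, and 0 in DESeq2), and Lef1 had the smallest unadjusted p, with a log2 difference of -0.17 ± 0.24 (SE). The interaction, the inhibitor difference in APP/PS1 minus that in WT, passed for 0 of the 10 (0.0% of all genes in edgeR, with 158 at an unadjusted p under 0.05, and 0 in DESeq2). Reck had its smallest unadjusted p, at -0.33 ± 0.29 (SE) on the log2 scale, with an interval from -0.94 to 0.28. The comparisons with control peptide and within APP/PS1 share the same 2 libraries, and leaving out 1 library moved the Reck interaction to between -0.62 and 0.04.

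Single libraries stood out across many of the 10 genes. WT library 4 with control peptide was among the 3 highest libraries for 9 of the 10 genes, and APP/PS1 library 2 with inhibitor for 6. WT library 2 with control peptide was among the 3 lowest for 8 of the 10. All 45 pairs of the 10 genes were positively correlated over the 17 libraries, with a median Pearson r of 0.54, from 0.86 for Reck with Sox17 to 0.12 for Fzd4 with Tspan12. These correlations share the scaling and the composition of each library and are given as a description.

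An endothelial score was taken as the mean log2 CPM of 12 endothelial markers, none of which is among the 10 genes. This score ranged from 6.98 to 7.77 and overlapped between all groups. Apcdd1 followed it most closely, with Pearson's r = 0.86 and Spearman's rho = 0.81 over 17 libraries (permutation test, 100000 resamples, two-sided, p = 2e-05 and 0.00016, and 0.0002 and 0.0008 with Benjamini-Hochberg adjustment over the 10 relations). Adgra2 had r = 0.84 and rho = 0.79, Sox17 r = 0.84 and rho = 0.84, Lef1 r = 0.78 and rho = 0.74, Axin2 r = 0.77 and rho = 0.73, and Reck r = 0.76 and rho = 0.78. The largest permutation p among these 5 was 0.00065 for r (adjusted 0.00108) and 0.00151 for rho (adjusted 0.00252). For Tspan12 r was 0.69 and rho 0.69 (permutation p = 0.00238 and 0.00275, adjusted 0.0034 and 0.00393), for Lrp5 0.66 and 0.68 (0.00502 and 0.00335, adjusted 0.00627 and 0.00419), and for Lrp6 0.57 and 0.54 (0.0157 and 0.0258, adjusted 0.0175 and 0.0286). Fzd4 did not pass, with r = 0.42 and rho = 0.35 (permutation p = 0.0917 and 0.171, unchanged by the adjustment). The median r of all genes tested was -0.0023, and 14.1% of them had r above 0.5, against 9 of the 10 genes.

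Markers of other vessel cells moved with the endothelial score. Over the 17 libraries its Pearson r was 0.94 with the pericyte score (Spearman's rho = 0.92) and 0.83 with the fibroblast score (rho = 0.85), with adjusted permutation p = 0.0001 for each of these values over 10 relations between scores, examined after the data were seen. Without the 2 libraries farthest from the median endothelial score, r was 0.91 and 0.76. The other 8 scores did not pass, with r from -0.31 for oligodendrocyte to 0.49 for smooth muscle markers. Of the 10 genes, 8 had r above 0.5 with the pericyte score and 9 with the fibroblast score, against 9 with the endothelial score. With the smooth muscle score 4 of the 10 had r above 0.5, and with the astrocyte score 3. The share of all genes tested with r above 0.5 is given only for the endothelial score. Sox17 had r = 0.69 with the pericyte score and 0.80 with the fibroblast score, and Fzd4 had 0.33 and 0.64. Lrp6 had r = 0.64 with the choroid plexus score, above its 0.57 with the endothelial score. It was the only 1 of the 10 genes above 0.5 with that score. WT library 4 with control peptide, the highest for Lrp6, also had the highest choroid plexus score, 8.49. The parts of endothelial, pericyte, fibroblast and choroid plexus RNA in these relations were not tested separately.

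Without the 2 libraries farthest from the median score, WT library 4 with control peptide and APP/PS1 library 2 with inhibitor, r was between 0.61 and 0.77 for 7 of the 10 genes, which still passed. It was 0.51 for Lrp5 and 0.43 for Lrp6, which then did not pass (adjusted permutation p = 0.0692 and 0.126), and 0.36 for Fzd4. The calls of Lrp5 and Lrp6 thus needed those libraries, whose omission also leaves fewer libraries and a narrower range of the score. Leaving out any 1 library kept r at 0.59 or above for Lrp5 and at 0.43 or above for Lrp6. With values centred within each group, the same 9 genes passed, with r from 0.57 for Lrp6 to 0.88 for Sox17. The SD of log2 CPM became smaller for 8 of the 10 genes when the score was subtracted, for example from 0.27 to 0.15 for Sox17, and larger for Lrp6 and Axin2. Axin2, whose r was high, thus varied over a narrower range than the score did.

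**Figure D3:**
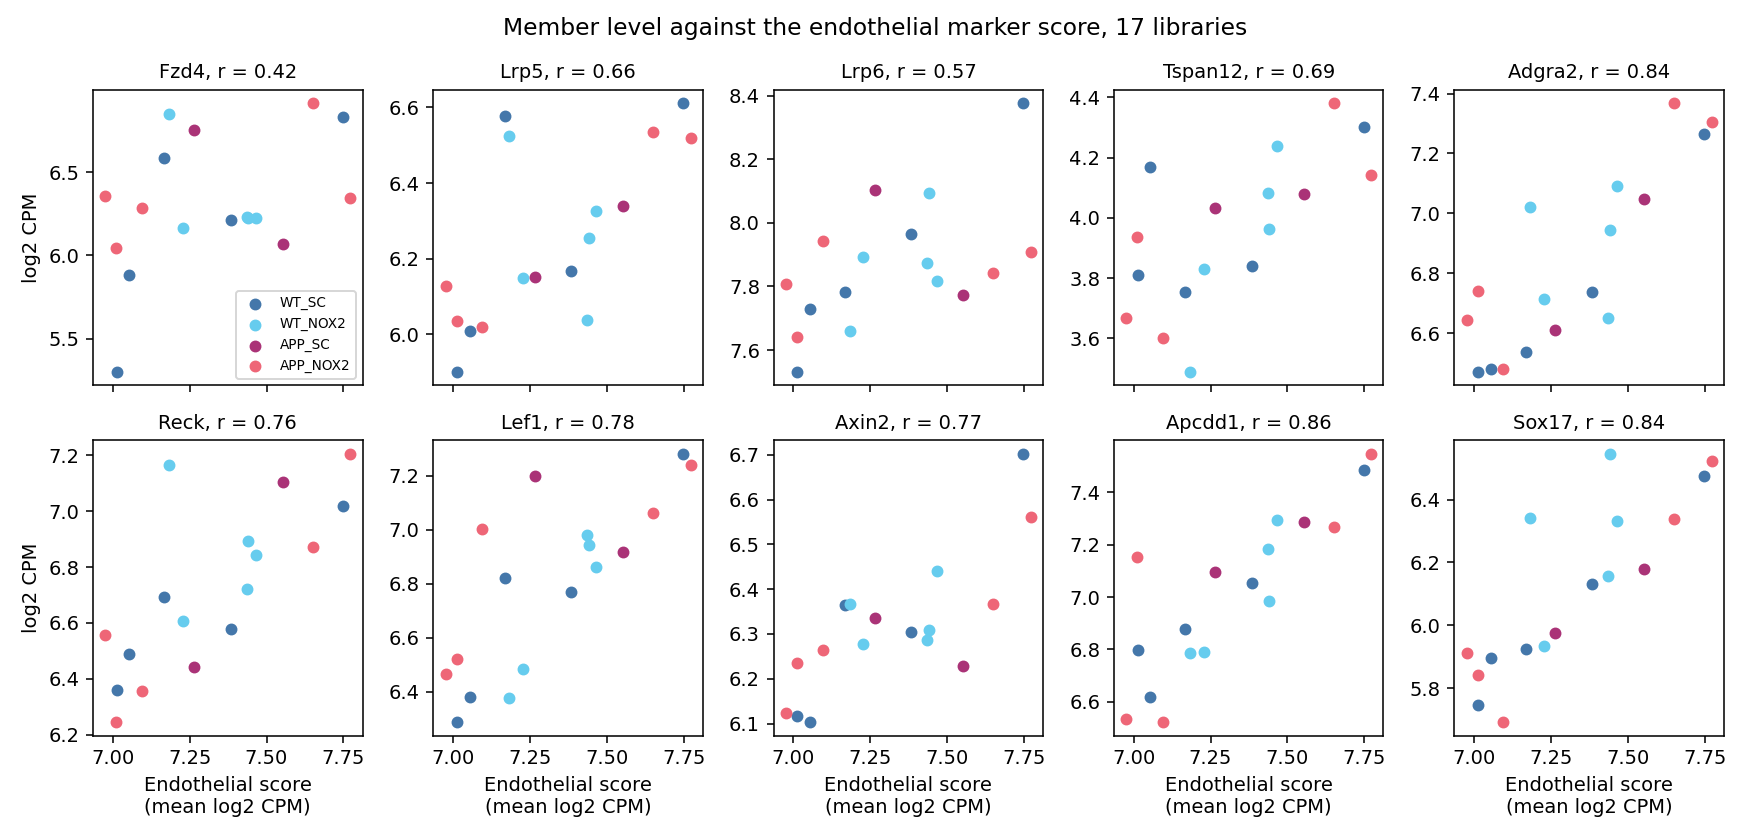
log2 CPM of each gene against the endothelial score, the mean log2 CPM of 12 endothelial markers, in 17 libraries coloured by group, with Pearson's r in each panel. The 3 libraries with the highest scores lie in 2 groups, and the relation is loosest for Fzd4 (r = 0.42).

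With the score as a covariate, the standard errors of all 10 genes became smaller in each of the 7 comparisons. In any of these comparisons 0 of the 10 passed. Of all genes tested, 140 passed for genotype over both peptides and 14 for genotype with control peptide in this fit. The genotype difference of Lef1 over both peptides stayed at 0.20 and its SE became 0.09, with an unadjusted p of 0.0415 (edgeR quasi-likelihood adjusted p = 0.621). Microglial markers moved with genotype. Of 6 markers, 5 were called higher in APP/PS1 over both peptides, and their summed level was 191 to 264 CPM in WT and 228 to 438 CPM in APP/PS1. With a microglial score as a covariate, chosen after seeing the data, the genotype difference was -0.55 for Reck, -0.53 for Sox17, -0.49 for Apcdd1, -0.48 for Adgra2, -0.42 for Lrp5 and -0.38 for Tspan12, each with an unadjusted p under 0.05. None passed after adjustment (lowest edgeR quasi-likelihood adjusted p = 0.192, for Sox17), where 12 of all genes tested did. The share of all genes with an unadjusted p under 0.05 in this fit was not determined. Whether these differences are particular to the 10 genes was therefore not tested. The signs of 6 of the 10 genes (Apcdd1, Adgra2, Tspan12, Fzd4, Lef1 and Lrp6) thus depended on this covariate, which itself differs by genotype, and the part of microglial RNA in the result was not tested.

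Beyond these 10 genes, 81 further genes of the pathway were listed by role, and 73 of them had enough counts to be tested. In all 7 comparisons 0 of the 73 passed in edgeR's quasi-likelihood test, where between 0.0% and 0.587% of all genes tested did. The 8 below the filter were Wnt1, Wnt3a, Wnt8a, Wnt8b, Wnt9b, Rspo4, Dkk1 and Sost. For genotype over both peptides the median log2 difference of the 73 was 0.02. An unadjusted p under 0.05 was reached by 2 of the 73, both ligands, beside 6.38% of all genes tested.

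Among the ligands, the barrier signals were measurable. Without regard to length, Wnt7b and Wnt7a were above most other listed ligands in mean CPM, and Norrin was lower. Wnt7b was at 6.51 to 18.2 CPM, Wnt7a at 4.17 to 10.9 CPM and Ndp, which encodes Norrin, at 1.01 to 3.58 CPM over the 17 libraries, and their genotype differences were 0.19, 0.07 and 0.11 on the log2 scale. Wnt9a had the smallest unadjusted p of the pathway for genotype. Its mean was 8.44 CPM ± 1.93 (SD) over 7 APP/PS1 libraries and 11.8 CPM ± 2.29 over 10 WT libraries, a log2 difference of -0.48 ± 0.15 (SE) that did not pass (unadjusted p = 0.00488, edgeR quasi-likelihood adjusted p = 0.332). Wnt2b was the other ligand, at 2.80 CPM ± 0.475 and 3.58 CPM ± 0.709 (log2 difference -0.37, edgeR quasi-likelihood adjusted p = 0.663). Choroid plexus markers varied from 32.7 to 8280 CPM between libraries beside these values, and their part in the ligand levels was not tested. Wnt6 had the smallest unadjusted p of the pathway for inhibitor in WT, at 0.87 ± 0.42 (SE) on the log2 scale, and for the interaction, at -1.24 ± 0.66 (SE).

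Of 6 R-spondins and R-spondin receptors tested, all 6 had log2 differences below 0 with inhibitor over both genotypes. Of these, 0 passed, where 0.0% of all genes tested did. Lgr5 averaged 12.3 CPM ± 5.47 (SD, n = 10) with inhibitor and 19.4 CPM ± 5.92 (SD, n = 7) with control peptide, a log2 difference of -0.64 ± 0.25 (SE, unadjusted p = 0.0183, edgeR quasi-likelihood adjusted p = 1.00). Lgr6 had a log2 difference of -0.60 ± 0.29 (SE). The 7 libraries with control peptide overlapped with those with inhibitor for both genes.

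In the cytoplasm and nucleus, Ctnnb1, which encodes beta-catenin, was at 203 to 543 CPM with a genotype difference of 0.06 on the log2 scale, and the partner factors Tcf7, Tcf7l1 and Tcf7l2 had 0.09, 0.21 and 0.12. Dvl2, which relays the signal from Frizzled, had the smallest unadjusted p of the pathway for genotype with control peptide. The 2 APP/PS1 libraries with control peptide were at 37.6 and 42.8 CPM, and the 5 WT libraries at 46.9 to 51.7 CPM (log2 difference -0.30 ± 0.14 SE, edgeR quasi-likelihood adjusted p = 1.00). How many of all genes separate these few libraries in this way was not counted. Dvl2 was the only 1 of the 73 genes with an unadjusted p under 0.05 there, beside 3.97% of all genes tested. The same 2 libraries enter the inhibitor comparison in APP/PS1, where the log2 difference of Dvl2 was 0.29.

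The barrier genes that depend on endothelial beta-catenin likewise gave 0 calls among 10. Of all genes tested, 0.587% were called for genotype over both peptides and 0.0% for inhibitor over both genotypes. Cldn5, the main tight junction claudin of brain endothelium, had a mean of 245 CPM ± 92.5 (SD) over 7 APP/PS1 libraries and 267 CPM ± 60.8 over 10 WT libraries, a log2 difference of -0.14 ± 0.19 (SE). Slc2a1, the glucose transporter, had a log2 difference of -0.05, the lipid transporter gene Mfsd2a 0.12, and Plvap, a marker of leaky endothelium that canonical Wnt signalling represses, 0.03 at a level of 2.10 to 10.8 CPM. The transcription factor genes Foxf2, Foxq1, Sox7 and Sox18 had log2 differences of 0.13, 0.10, 0.19 and 0.12. With inhibitor over both genotypes, the log2 differences of Cldn5, Slc2a1, Mfsd2a and Plvap were 0.07, 0.02, 0.04 and 0.21, and those of Foxf2, Foxq1, Sox7 and Sox18 were -0.04, -0.02, 0.19 and 0.22. The median over the 10 was 0.08 for genotype and 0.04 for inhibitor, beside 0.00 over all genes tested in both.

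**Figure D4:**
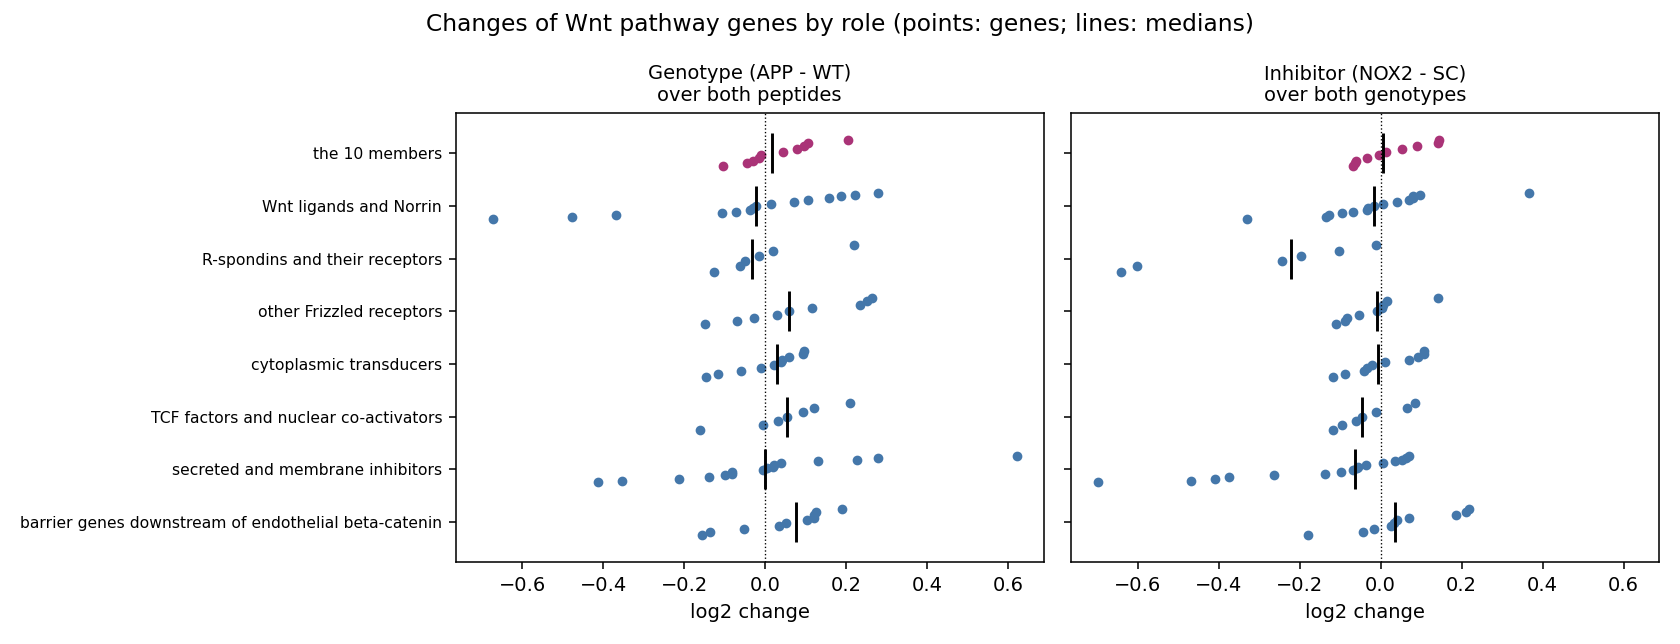
log2 change of every tested pathway gene, grouped by role, for genotype over both peptides and for inhibitor over both genotypes; each point is 1 gene. The 10 genes described first lie between -0.10 and 0.20 for genotype and between -0.07 and 0.14 for inhibitor. In either panel 0 of the genes passed the test, where 0.587% (genotype) and 0.0% (inhibitor) of all genes tested did.

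The genes whose levels were most like those of the group were taken from all 18753 genes by Pearson's r of log2 CPM over the 17 libraries, 2 for each gene. Adgra2 was most like Esam (r = 0.97), which is also 1 of the 12 endothelial markers, and Glud1 (0.96). Sox17 was most like Rgs3 (0.95) and Jag1 (0.94), Apcdd1 like Clic5 (0.92) and Cav1 (0.90), Lef1 like Uaca (0.95) and Ube2l3 (0.92), Reck like Lamb2 (0.94) and Tmpo (0.92), and Axin2 like Hnrnpk (0.91) and Gstk1 (0.87). Lrp5 was most like Rps3a1 (0.96) and Ak3 (0.93), Lrp6 like Fam107b (0.93) and Cgnl1 (0.92), Fzd4 like Cyth3 (0.91) and Ccdc6 (0.90), and Tspan12 like Ptgfrn (0.90) and Vwa1 (0.87). Each is the highest or next highest among all genes tested, so the values are a description and were not tested.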

How the data were processed

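Raw read counts by Ensembl gene were deposited, as whole numbers with a different total in each library. Libraries were made with a stranded kit after ribosomal RNA depletion, per the labels' protocols. The tools cutadapt, STAR, HTSeq and DESeq2 and the builds GRCh37 and mm10 are named in the submitters' processing notes without versions or roles, and the strand setting of the counting is not given in the sources used here, so reads of genes that overlap on opposite strands may be mixed. The table held 20 further value columns that match no sample and were not used. Symbols came from GENCODE vM21, which matched 42250 of 42687 IDs. Of 136 pairs of libraries, 0 held identical values, and the chi-square per degree of freedom within groups was 5.04 or more, beyond counting error. Each library was counted as 1 replicate, although these checks cannot show whether libraries came from separate animals.

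Counts were filtered with filterByExpr, scaled by TMM and tested with edgeR 4.0.16 (quasi-likelihood F test, R 4.3.3), with Benjamini-Hochberg adjustment over all genes tested and a threshold of 0.05. Terms for genotype and for peptide, added without interaction, gave the comparisons over both peptides and both genotypes, and separate means for the 4 groups gave the other 5, each with all 17 libraries. Standard errors come from the estimate and its F statistic. Log2 levels used a prior count of 2. The fit was tested on simulated data. It was first run with edgeR's robust option, and after its counts were seen it was run again without that option, which is the fit reported; the robust fit is given among the alternatives. The members, pathway lists and markers were chosen with earlier results of these data known. Named pathway genes were a written list plus the gene with the smallest unadjusted p in each comparison, and 2 most alike genes per member; 1 gene of the written list is not reported here. Alternatives were DESeq2 1.42.0 and its size factors, no filter on low counts, the compared groups only, an endothelial covariate, CPM on raw library sizes and leaving out each library. Covariates for pericytes, neurons and microglia, the robust option and the leave-one-out correlations were added after seeing the data. The smallest level resolved, 3 counts, was 0.174 to 0.390 CPM, for counting error only.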

Additional observations from a re-analysis of the deposited data

Results flagged for a closer look

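Within groups of 5 libraries, the highest and lowest library of each gene was compared with its neighbour by the gap divided by the range of the group (Dixon's ratio, 95% critical value 0.71). Fzd4 in WT library 3 with inhibitor, at 115.2 CPM, stood above the other libraries of its group, at 71.9 to 75.1 CPM, with a ratio of 0.926. Adgra2 in WT library 4 with control peptide, at 153.8 CPM, stood above the others, at 88.6 to 107 CPM, with a ratio of 0.723. WT library 4 with control peptide also had the highest level of 4 of the 10 genes and an endothelial score of 7.75, the next to highest of 17. WT library 3 with inhibitor had a score of 7.18, the 11th of 17. Chance flags about 1 in 20 groups, or 1.65 of the 33 groups compared, and 2 were found.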

How the results depend on the processing

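For the 10 genes, 1450 values were computed under alternatives over the 7 comparisons, and 0 passed the threshold (lowest edgeR quasi-likelihood adjusted p = 0.192). The sign changed in 201 of them, 144 with a library left out and 57 otherwise, mostly for values near 0. Directions below are given only for the changes reported one by one. This choice was made after seeing how many signs changed. With the microglial covariate, added after seeing the data, the genotype difference over both peptides became -0.21 for Fzd4, 0.0045 for Lrp6, -0.48 for Adgra2, -0.38 for Tspan12, -0.045 for Lef1 and -0.49 for Apcdd1, and the inhibitor difference over both genotypes 0.041 for Lrp5 and 0.0075 for Apcdd1. The pericyte covariate gave 0.029 for Lrp5 and 0.018 for Apcdd1 (inhibitor), and the neuronal covariate 0.0092 for Lrp6 (genotype). The cause was not tested.

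The number of genes called for genotype over both peptides was 110, and 182 with DESeq2 and 12 with the microglial covariate. With control peptide it was 10, and 45 with DESeq2, 17 with the neuronal and 2 with the microglial covariate. With inhibitor it was 34, and 61 with DESeq2 and 4 with the microglial covariate. The robust option gave 110, 10 and 34 genes, and 0 of the 10 genes passed with it. In the other 4 comparisons the count was 0 under each alternative run.

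With 1 library left out, these counts were 70 to 125, 4 to 17 and 15 to 38. Over both peptides, the count was 70 without APP/PS1 library 2 with control peptide. With control peptide it was 6 without WT library 3, 17 without WT library 4, 6 without APP/PS1 library 1 and 4 without APP/PS1 library 2. With inhibitor it was 21, 19 and 15 without WT libraries 1, 3 and 5, and 15 and 17 without APP/PS1 libraries 2 and 4. The genotype difference then ranged from -0.0038 to 0.20 for Fzd4, -0.064 to 0.029 for Lrp5, -0.064 to 0.040 for Lrp6, -0.17 to 0.020 for Reck, -0.028 to 0.096 for Tspan12 and -0.078 to 0.0077 for Axin2. The inhibitor difference over both genotypes ranged from -0.051 to 0.16 for Fzd4, -0.052 to 0.055 for Lrp5, -0.11 to 0.022 for Lrp6, -0.13 to 0.028 for Lef1, -0.018 to 0.080 for Axin2 and -0.091 to 0.053 for Apcdd1, and the interaction of Reck from -0.62 to 0.036. Where 1 library of APP/PS1 with control peptide was left out, the other is assumed to vary like the other groups.

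The correlation with the endothelial score ranged from 0.31 to 0.51 for Fzd4, which passed without WT library 3 with inhibitor (r = 0.51), and from 0.43 to 0.62 for Lrp6, which did not pass without WT library 4 with control peptide (r = 0.43). Without the 2 farthest libraries r was 0.51 for Lrp5 and 0.43 for Lrp6. Mean levels on raw library sizes moved by less than 1 SD. No paired analysis was possible because replicate numbers follow the order of the samples and pair no libraries.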
